A study of Rattus norvegicus with 11 samples.

Results

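Glomerular endothelial cells (GEC) are described here in the kidneys of 11 male ZSF1 rats profiled by droplet single-cell RNA sequencing. The cells were chosen by the name GEC that the study's authors gave each cell, and 6093 of 114615 cells (5.32%) carried it. Another 38 cells carried the name Endo, read here as other endothelium, and were not included. The deposited table holds no gene values, so the name could not be checked against the endothelial markers Ehd3, Pecam1 and Kdr, and no gene of these cells could be tested.

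Glomerular endothelial cells line the capillaries of the renal filter. They are thin and fenestrated, they carry a charged surface coat, and they share a basement membrane with the podocytes, whose vascular endothelial growth factor keeps them alive through the receptor encoded by Kdr. Loss of this capillary bed is a known feature of diabetic kidney disease. Angiotensin-converting enzyme, the target of enalapril, is anchored on the surface of many endothelial cells. Whether these GEC carried it could not be checked without gene values.

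The 3 groups were 3 obese rats given enalapril (Obese+enalapril), 4 obese rats (Obese) and 4 lean rats (Lean). All were males aged 12 weeks on arrival, kept on a high-energy chow, and all carry the genotype label ZSF1-LeprfaLeprcp/Crl, which names a pair of leptin receptor alleles and is written for the lean rats too. Enalapril, an inhibitor of angiotensin-converting enzyme, was given in the drinking water. The protocol describes a vehicle for the untreated obese rats, while the treatment label reads none for both Obese and Lean. Debris and dead cells were removed from each dissociated kidney before 10000 cells were loaded, so the values are shares of the recovered cells. Fewer glomerular endothelial cells in the kidney and poorer recovery of them cannot be told apart.

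Animals held 4232 to 18427 cells, and 6 of 11 held more than the 10000 loaded. The sample codes fall into 6 stems, of which 5 cover 2 animals each, namely Obese+enalapril 1 and 2, Obese 1 and 2, Obese 3 and 4, Lean 1 and 2, and Lean 3 and 4. The labels do not say what a stem stands for, and no stem spans 2 groups, so stem and group cannot be told apart. One library stood apart. Lean 2 had a median of 407 UMIs (counted RNA molecules) per cell, against 1132 to 3092 in the other 10 animals, and its GEC held 193 to 551 UMIs, where the smallest GEC elsewhere had 480 to 535. Where a comparison with Lean rests on Lean 2, a fit or a Lean mean without it is given as well. Any pair of animals shared 3 to 85 cell barcodes, 175 GEC (2.87%) carried a barcode also found in another animal, as did 2.86% of all cells, and in 6 cases both cells were GEC. On the authors' map of the cells, 98.2% of the 15 nearest neighbours of a GEC were also GEC, and the next most frequent name, Podo/Stroma (podocytes or stroma), made up 0.999%. Only 46 GEC (0.755%) lay over 5 map units from the centre of the group. The Endo cells had mostly Endo neighbours (80.5%), followed by T cells (9.30%) and GEC (9.12%), and numbered 0 to 14 per animal. The 0 Endo cells of Lean 2 and Lean 4 allow shares of up to 0.0709% and 0.0464%, for counting error only.

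The first question was whether GEC took a different share of the kidney's cells in obese rats and under enalapril. GEC made up 3.41%, 4.38% and 4.77% of the cells in the 3 Obese+enalapril kidneys. They made up 4.91%, 7.09%, 6.10% and 1.98% in the 4 Obese kidneys, and 8.67%, 1.49%, 12.2% and 8.30% in the 4 Lean kidneys. The enalapril-treated kidneys lay close together, while Obese 4 and Lean 2 lay far below the others of their groups, so that all 3 groups overlapped. Exact (Clopper-Pearson) 95% intervals were narrow beside these gaps, at 1.78% to 2.19% for Obese 4, 1.15% to 1.90% for Lean 2 and 11.5% to 13.0% for Lean 3. Such intervals cover the error of counting cells in 1 library only, not differences in recovery. Among the cell types of an animal, GEC ranked 6 to 7 from the top in Obese+enalapril, 6 to 8 in Obese, and 2, 3 and 4 in Lean 3, Lean 4 and Lean 1, but 13 in Lean 2.

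**Figure D1:**
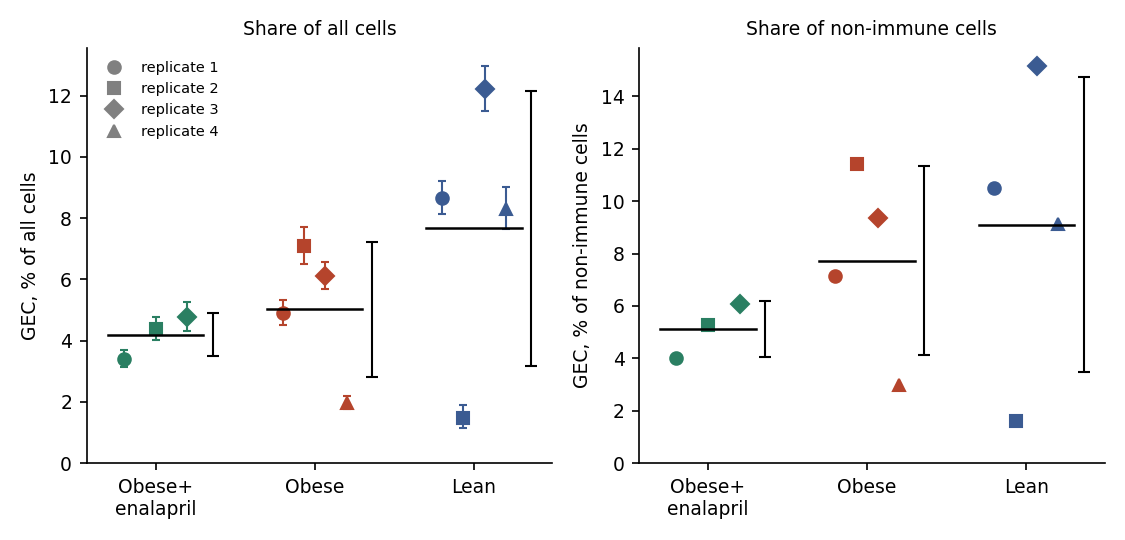
GEC as a percent of all cells (left) and of non-immune cells (right), 1 point per animal, with the shape giving the replicate number. Thin bars in the left panel are exact 95% binomial intervals, for counting error only. Horizontal lines are group means and the black bars beside them are SD. The 3 Obese+enalapril animals sit between 3.41% and 4.77% of all cells, and Lean 2, at 1.49%, lies apart from the other 3 Lean animals.

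The group means were 4.19% ± 0.700 in Obese+enalapril (SD, n = 3), 5.02% ± 2.22 in Obese (SD, n = 4) and 7.67% ± 4.48 in Lean (SD, n = 4). No comparison between groups passed the test (edgeR's quasi-likelihood test on cell counts per animal, with Benjamini-Hochberg adjustment over 20 cell types and a threshold of 0.05). The log2 fold change of the GEC share in Obese over Lean was -0.62 ± 0.51 (SE; edgeR adjusted p = 0.290), in a comparison where 12 of 20 types (60%) were called. In Obese+enalapril over Lean it was -0.88 ± 0.57 (edgeR adjusted p = 0.278), with 3 of 20 types (15%) called.

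For Obese+enalapril over Obese the log2 fold change was -0.26 ± 0.56 (SE; edgeR adjusted p = 0.680). There edgeR called 0 of 20 types (0%), with 2 at an unadjusted p under 0.05, DESeq2 called 1 and limma called 0. The GEC estimate was negative in all 3 comparisons under every alternative fit that was run, but each of the 3 values above lay within 2 SE of 0.

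The Lean values rest in part on Lean 2. The remaining Lean kidneys averaged 9.73% ± 2.16 (SD, n = 3), and 4 of 4 Obese and 3 of 3 Obese+enalapril kidneys then lay below all of them. Without Lean 2 the fold changes were -1.22 ± 0.47 log2 in Obese+enalapril over Lean (edgeR adjusted p = 0.0534) and -0.96 ± 0.43 log2 in Obese over Lean (edgeR adjusted p = 0.0698), and neither passed the threshold. In that fit 7 of 20 types (35%) were called between Obese and Lean. Leaving out Lean 3, the highest kidney, gave -0.56 and -0.30 log2 in the same order, and among cells under 10% mitochondrial UMIs the Obese+enalapril over Lean value was -0.54.

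Immune cells took up unequal parts of the kidneys, and a share of all cells falls as theirs grows. Monocytes, macrophages, T cells and B cells together made up 17.8% ± 3.55 of the cells in Obese+enalapril (SD, n = 3), 34.4% ± 2.74 in Obese and 13.4% ± 5.96 in Lean (SD, n = 4 each). Among the remaining, non-immune cells, GEC held 4.00%, 5.29% and 6.09% in Obese+enalapril, 7.14%, 11.4%, 9.35% and 2.98% in Obese, and 10.5%, 1.61%, 15.2% and 9.11% in Lean. On this base Obese 2 and Obese 3 lay within the range of the Lean kidneys other than Lean 2, while all 3 treated kidneys still lay below those 3.

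The Obese over Lean log2 fold change on the non-immune base was -0.24 ± 0.56 (SE; edgeR adjusted p = 0.840; 3 of 15 types, 20%, called). It was -0.59 ± 0.43 without Lean 2, and it turned to 0.33 when cells with 10% or more mitochondrial UMIs were left out. For Obese+enalapril over Obese it was -0.59 ± 0.61 (edgeR adjusted p = 0.874), where edgeR called 0 of 15 types (0%), with 1 at an unadjusted p under 0.05, and DESeq2 and limma called 0. Obese+enalapril over Lean gave -0.83 ± 0.61 (edgeR adjusted p = 0.335; 3 of 15 types, 20%, called), and -1.18 ± 0.47 without Lean 2 (edgeR adjusted p = 0.0962). That value was smaller in size without Lean 3 (-0.47), under 10% mitochondrial UMIs (-0.29) and among non-immune cells other than proximal tubule (-0.24), with edgeR adjusted p = 0.659, 0.892 and 0.666.

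The nearest structural partners of these capillaries, the podocytes, are held in the joint name Podo/Stroma, which had 9 to 123 cells per animal. Each Podo/Stroma cell was matched by 13.9, 8.51 and 8.45 GEC in the Obese+enalapril kidneys. The ratio was 6.49, 6.76, 5.72 and 6.62 in the Obese kidneys, and 20.6, 7.0, 13.6 and 17.9 in the Lean kidneys. The 4 Obese kidneys lay close together and below every Lean and every treated kidney. Obese 4, with the lowest GEC share of its group, had an ordinary value here, and Lean 2, the lowest Lean value, rests on 9 Podo/Stroma cells. The ratio also moves with its denominator. Podo/Stroma cells averaged 49 per kidney in Obese+enalapril, 83.5 in Obese and 38.75 in Lean, out of unequal totals. The Lean average was 48.7 without Lean 2. In Obese+enalapril over Obese the ratio was higher, while the GEC share was lower, at -0.26 log2 of all cells and -0.59 of non-immune cells. How far each count moves the ratio was not tested.

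The mean ratio was 10.3 ± 3.13 in Obese+enalapril (SD, n = 3), 6.40 ± 0.462 in Obese and 14.8 ± 5.91 in Lean (SD, n = 4 each). Without Lean 2 the Lean mean was 17.4 ± 3.49 (SD, n = 3). On the log2 scale, with 0.5 added to both counts, the Obese minus Lean difference was -1.08 ± 0.36 (SE; exact two-sided permutation p = 0.0571, adjusted p = 0.171 over the 6 ratio comparisons). For Obese+enalapril minus Obese it was 0.64 ± 0.24 (exact permutation p = 0.0571, adjusted p = 0.171). Obese+enalapril against Lean gave -0.44 ± 0.43 (exact permutation p = 0.400, adjusted p = 0.480). With nothing added to the counts, an alternative taken up after the values were seen, Obese over Lean was -1.10 (exact permutation p = 0.0286, adjusted p = 0.171) and Obese+enalapril over Obese was 0.65 (exact permutation p = 0.0571, adjusted p = 0.171). These are the lowest p-values that 4 animals against 4, and 3 against 4, can give. At these group sizes none of the 6 ratio comparisons could pass the threshold after adjustment, even with every p-value at its lowest. The adjusted values of either form therefore cannot decide whether this ratio separates the Obese animals. Among cells under 10% mitochondrial UMIs the Obese minus Lean difference was -0.55 and Obese+enalapril minus Obese 0.44 (exact permutation, adjusted p = 0.557 each), and Obese+enalapril minus Lean was -0.11. At 500 UMIs or more, where Lean 2 drops out, Obese minus Lean was -1.39 and Obese+enalapril minus Lean -0.79. With animals of 1 code stem averaged, Obese minus Lean was -1.08 and Obese+enalapril minus Obese 0.58 (exact permutation p = 0.333 each, the lowest that 2 against 2 can give). Podocytes and stroma cannot be told apart in the joint name, so the ratio is not one of glomerular cells alone.

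**Figure D2:**
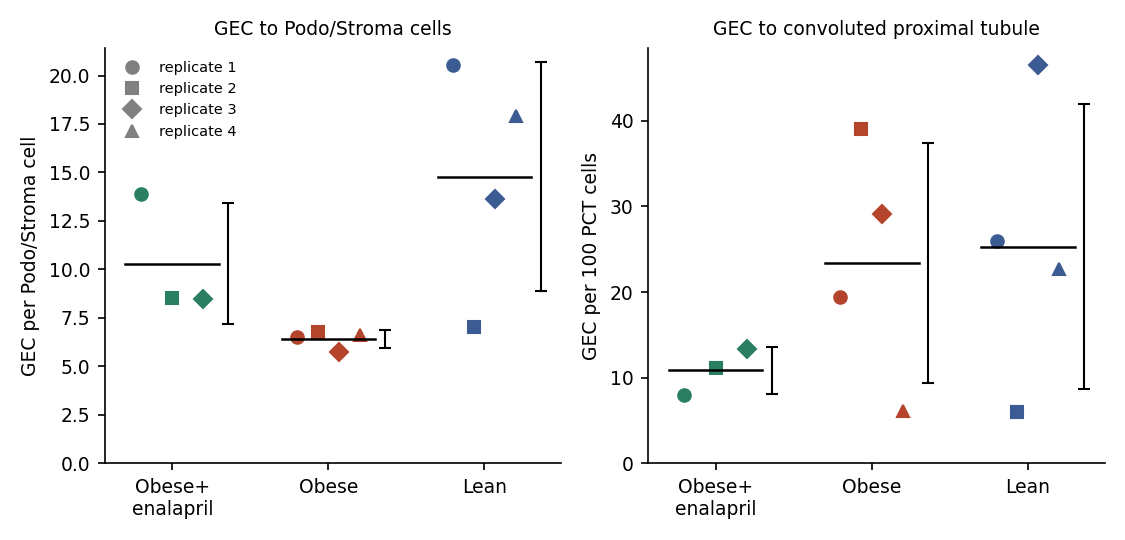
Number of GEC per Podo/Stroma cell (left) and per 100 convoluted proximal tubule cells, PCT (right), 1 point per animal; horizontal lines are group means and the bars beside them are SD. In the left panel, with nothing added to the counts, the 4 Obese animals lie between 5.72 and 6.76, below all others. They spread from 6.09 to 39.1 in the right panel.

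Set against the most abundant cell type, the convoluted proximal tubule (PCT, 36543 cells), the ratio did not separate the groups. There were 7.98, 11.2 and 13.4 GEC per 100 PCT cells in the Obese+enalapril kidneys, 19.4, 39.1, 29.1 and 6.09 in the Obese kidneys, and 26.0, 5.95, 46.5 and 22.7 in the Lean kidneys. Obese 4 and Lean 2 were again the lowest of all 11. The Lean mean was 25.3 with Lean 2 and 31.7 without it, against 23.4 in Obese and 10.8 in Obese+enalapril. The log2 ratio differed by -0.07 ± 0.86 between Obese and Lean (SE; exact permutation p = 0.886), by -0.85 ± 0.63 between Obese+enalapril and Obese (exact permutation p = 0.286, adjusted p = 0.429), and by -0.93 ± 0.66 between Obese+enalapril and Lean (exact permutation p = 0.286, adjusted p = 0.429). The first and the last of these changed sign with the choice of cells: among cells of at least 500 UMIs they were 0.88 and 0.01.

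The number of RNA molecules counted per GEC varied widely within groups. The median GEC held 705, 1684.5 and 1432.5 UMIs in the Obese+enalapril animals, 1319.5, 1587, 2152.5 and 1905.5 in the Obese animals, and 1012.5, 275, 1610 and 1435 in the Lean animals. Obese+enalapril 1 and Lean 2 were the 2 lowest. The same 2 animals had the fewest genes per GEC, where the medians were 426, 923 and 712 genes in Obese+enalapril, 722.5, 847, 1137 and 988.5 in Obese, and 623, 187, 905 and 834 in Lean.

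Obese over Lean, the log2 difference was 0.93 ± 0.57 for median UMIs (SE; limma adjusted p = 0.297) and 0.74 ± 0.48 for median genes (limma adjusted p = 0.371). Without Lean 2 these were 0.37 for UMIs and 0.23 for genes. Obese+enalapril over Obese, the differences were -0.52 ± 0.61 for UMIs and -0.48 ± 0.52 for genes (limma adjusted p = 0.927 and 0.940), and -0.14 and -0.17 without Obese+enalapril 1. Obese+enalapril over Lean, they were 0.41 ± 0.61 and 0.26 ± 0.52 (limma adjusted p = 0.707 and 0.873), and without Lean 2 they became -0.15 and -0.25. For either measure limma called 0 of 18 types (0%) in each of the 3 comparisons, with 2, 0 and 1 types at an unadjusted p under 0.05 in the order just given.

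Mitochondrial transcripts made up a small part of the RNA of GEC. The median share was 2.15%, 2.60% and 7.70% in the Obese+enalapril animals, 7.01%, 8.96%, 3.68% and 4.84% in the Obese animals, and 4.46%, 0.541%, 4.68% and 3.68% in the Lean animals. The groups overlapped, with Obese 2 the highest and Lean 2 the lowest. The differences were 2.78 ± 2.20 percentage points for Obese minus Lean (SE; limma adjusted p = 0.392; 1 of 18 types, 5.56%, called) and -1.97 ± 2.38 for Obese+enalapril minus Obese (limma adjusted p = 0.697; limma called 0 of 18, 0%, with 1 at an unadjusted p under 0.05). For Obese+enalapril minus Lean the difference was 0.81 ± 2.38 points (limma adjusted p = 0.880; 1 of 18 types, 5.56%, called). The Lean mean was 3.34% with Lean 2 and 4.27% without it, against 6.12% in Obese and 4.15% in Obese+enalapril. Without Lean 2 the Obese+enalapril mean thus lay slightly below the Lean mean.

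Within each animal GEC could be set against its other non-immune cells, which holds the library constant. The median GEC had fewer UMIs than the median other non-immune cell in 11 of 11 animals, by a mean of -0.61 ± 0.08 log2 (SE; 0.656-fold; exact sign-flip permutation test over 11 animals, p = 0.000977, the lowest it can give, adjusted p = 0.00146 over 3 measures). The mitochondrial share was likewise lower in 11 of 11 animals, by a mean of -9.90 ± 1.41 percentage points (exact permutation p = 0.000977, adjusted p = 0.00146). In Obese 1, for example, it was 7.01% in GEC against 22.4% in the other non-immune cells, and in Lean 4 it was 3.68% against 7.97%. GEC ranked 2 to 6 from the lowest in median UMIs among the 17 to 20 types with values in an animal, and 2 to 8 from the lowest in mitochondrial share. Against all other cells, immune cells included, the mitochondrial difference was smaller, at -6.64 points. A low share was not particular to GEC. Its mean over animals was 4.57% in GEC, 3.67% in joint convoluted and straight proximal tubule cells, 4.20% in monocytes and 4.73% in T cells.

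Fewer genes were detected in GEC than in the other non-immune cells in 9 of 11 animals, by a mean of -0.20 ± 0.07 log2 (SE; 0.869-fold; exact permutation p = 0.0254, adjusted p = 0.0254). Obese 2, with 847 against 744 genes, and Obese 4, with 988.5 against 873, went the other way. Against all other cells, immune cells included, GEC genes were lower in 11 of 11 animals, by -0.20 log2 (exact permutation, adjusted p = 0.000977). Against the median over the other non-immune types they were lower in 10 of 11, by -0.32 log2 (exact permutation, adjusted p = 0.00488). In the comparison with the pooled other non-immune cells, the call was lost without Obese+enalapril 1 or without Obese+enalapril 3 (exact permutation, adjusted p = 0.0508 in each case). With animals of 1 code stem averaged to give 6 values, the UMI and mitochondrial differences were -0.65 ± 0.11 log2 and -10.4 ± 1.71 points (SE; exact permutation p = 0.0312, the lowest 6 values can give, adjusted p = 0.0469 each), and the gene difference, at -0.23 ± 0.09 log2, was not called (exact permutation p = 0.125, adjusted p = 0.125). The cell names were given by the authors from these same cells, so a part of such differences that comes from how cells were named cannot be told apart.

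**Figure D3:**
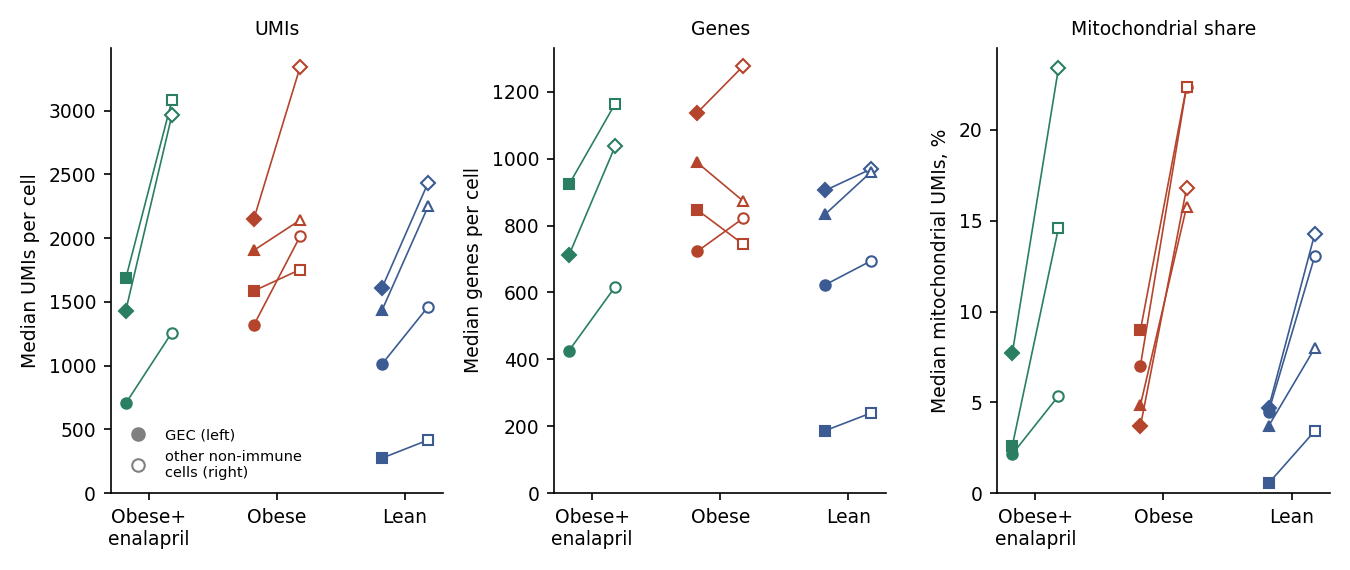
Median UMIs per cell, genes per cell and percent mitochondrial UMIs in GEC (filled) and in the other non-immune cells of the same animal (open), joined by a line per animal; marker shapes give the replicate number. The lines slope up from GEC for UMIs and mitochondrial share in 11 of 11 animals, and for genes in 9 of 11.

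Cells of unlike depth do not give comparable gene numbers, and without gene values the cells could not be thinned to a common depth. Cells with 1000 to 2000 UMIs were therefore compared, a comparison added after the data had been seen. In this window GEC had 655, 856.5 and 699.5 genes in the Obese+enalapril animals, 743, 826, 955 and 858 in the Obese animals, and 719.5, 870 and 845 in Lean 1, Lean 3 and Lean 4, while Lean 2 had no GEC there. The order of GEC and other non-immune cells turned round: within the window GEC had more genes in 9 of 10 animals, by a mean of 0.25 ± 0.05 log2 (SE; 1.19-fold; exact permutation p = 0.00391).

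The exception was Obese+enalapril 1, with 655 genes in GEC against 686 in the others. Depth was not equal inside the window: GEC were deeper than the others in 4 animals, among them Obese 3 (1640 against 1454.5 UMIs) and Obese 2 (1508 against 1400), which had the largest gene differences, and shallower in 6, most so in Obese+enalapril 1 (1176 against 1448). Comparing GEC and other cells within bins of 100 UMIs, also added after the data had been seen, gave a mean difference of 0.26 ± 0.02 log2 (SE; exact permutation p = 0.00195, the lowest that 10 animals can give). By that measure GEC had more genes in 10 of 10 animals, between 0.10 log2 in Obese+enalapril 1 and 0.34 log2 in Obese 3. The difference over the whole window kept its sign in windows of 500 to 1000 UMIs (0.24 log2) and 2000 to 4000 UMIs (0.0985 log2). Windows and bins were set on all UMIs, mitochondrial ones included. Over all depths GEC had the lower mitochondrial share in 11 of 11 animals, so UMIs from other genes were not matched. The part that this has in the gene difference was not tested. Ordered by the mean over animals, GEC stood at the top of all types with values, at 803 ± 93.7 genes (SD, n = 10). Its neighbour, monocytes, stood at 794 ± 78.4 (SD, n = 10), a gap smaller than the spread between animals. GEC and monocytes were not tested against each other within animals. Convoluted proximal tubule cells had 656 ± 34.6 and thick ascending limb cells (TAL), the lowest, 600.2 ± 42.4 (SD, n = 10 each). Podo/Stroma cells had too few in this window to be placed.

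**Figure D4:**
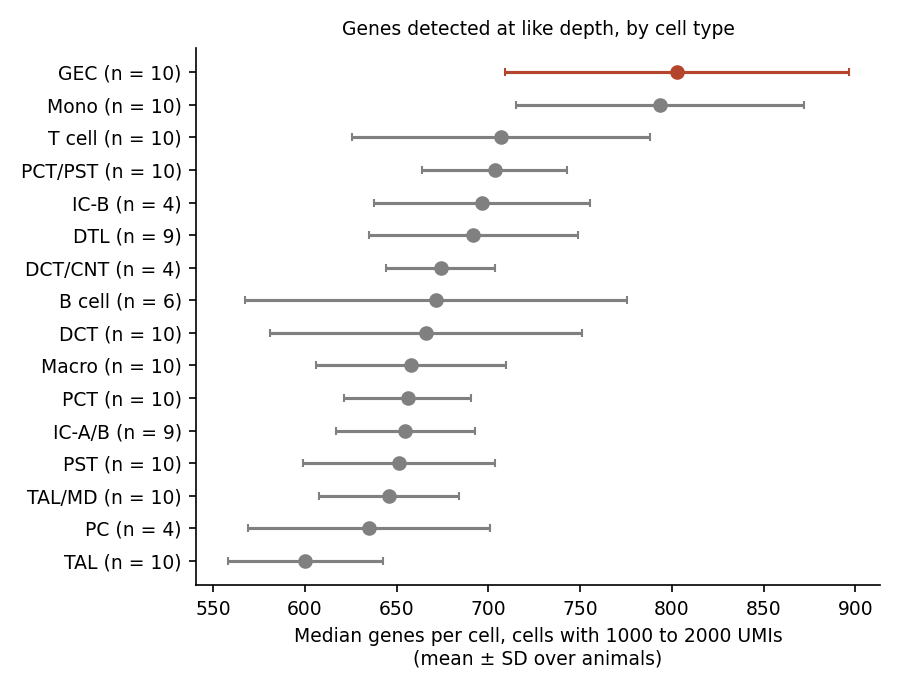
Median genes per cell among cells with 1000 to 2000 UMIs, as the mean over animals with at least 20 such cells, with SD as bars, for types with values in 4 or more animals (n in brackets). GEC lie at the top with monocytes, at 803 and 794 genes, and TAL at the bottom at 600.2; the axis does not start at 0.

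The groups overlapped in the GEC gene number in the window of 1000 to 2000 UMIs. The log2 difference was 0.06 ± 0.11 in Obese over Lean (SE; exact permutation p = 0.686), -0.20 ± 0.14 in Obese+enalapril over Obese (exact permutation p = 0.171, adjusted p = 0.450) and -0.14 ± 0.14 in Obese+enalapril over Lean (exact permutation p = 0.3, adjusted p = 0.450). Lean is represented by 3 animals in these comparisons. The lowest p that can be given is 0.1 for 3 against 3 and 0.0571 for 3 against 4. None of the 3 comparisons could therefore pass the threshold, and their p-values cannot decide whether the groups differ.

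GEC with a high mitochondrial share were a minority in every animal. Cells at 10% or more made up 12.9%, 17.7% and 41.4% of GEC in the Obese+enalapril animals, 35.5%, 46.4%, 22.0% and 27.5% in the Obese animals, and 32.4%, 6.35%, 29.1% and 16.6% in the Lean animals. Among the other non-immune cells of the same animals they made up 21.0% to 82.7%, and the GEC value was the lower one in 11 of 11. Compared with the rest of the GEC, their median UMIs were the higher in 9 of 11 animals, whereas their median genes were the higher in 3 of 11. These UMIs include the mitochondrial ones by which the cells were split, and UMIs from other genes were not compared. Whether these GEC were emptier than the rest can therefore not be told.

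The table also gives an S and a G2M score for each cell, with a phase called from them. In 100% of all cells the call followed the sign of the scores, with G1 where both were below 0 and otherwise the higher of the pair, so a cell slightly above 0 counts as S or G2M. By these calls 20.6%, 30.3% and 26.9% of GEC were in S in the Obese+enalapril animals, 29.5%, 33.8%, 31.0% and 27.2% in the Obese animals, and 32.7%, 6.35%, 32.5% and 30.9% in the Lean animals. Lean 2 stood far below all others, and without it Lean averaged 32.0% ± 0.988 (SD, n = 3). The called G2M share was more even, at 30.6%, 29.1% and 29.6% in Obese+enalapril, 28.2%, 26.0%, 35.2% and 27.7% in Obese, and 27.0%, 30.2%, 30.5% and 31.5% in Lean.

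Few of these cells had a score above 0.1. For S they made up 0.269% to 2.12% of GEC in Obese+enalapril, 1.32% to 4.12% in Obese and 0% to 2.79% in Lean, where the 0 belongs to Lean 2. For G2M they made up 1.34% to 1.63% in Obese+enalapril, 1.37% to 3.84% in Obese and 0.850% to 3.17% in Lean. The called G2M share of GEC was above that of the other non-immune cells of the same animal in 11 of 11 animals, where it ran between 14.5% and 20.9%, while both kinds of cell differ in depth. No dividing cells are read from these calls, and the part that depth and free RNA have in them was not tested.

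**Figure D5:**
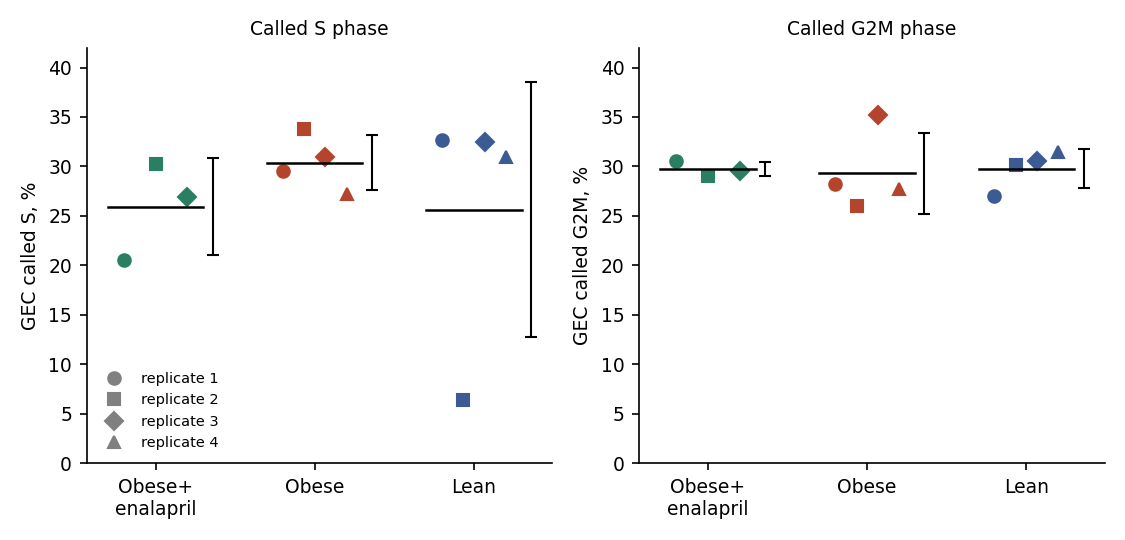
Percent of GEC called S (left) and G2M (right), 1 point per animal, with group means as horizontal lines and SD as the bars beside them. Lean 2 lies at 6.35% in the left panel, against 20.6% to 33.8% in the other 10 animals, and no group stands apart in the right panel.

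No group difference in the calls passed the test. For S, limma gave 4.75 ± 5.46 percentage points for Obese minus Lean, -4.45 ± 5.90 for Obese+enalapril minus Obese and 0.29 ± 5.90 for Obese+enalapril minus Lean (SE; limma adjusted p = 0.632, 0.935 and 0.963). It called 0 of 18 types (0%) in each, with 2, 0 and 1 at an unadjusted p under 0.05. The first of these turned to -1.68 points without Lean 2, and the last to -6.13. For G2M the differences were -0.49 ± 2.42 for Obese minus Lean (limma adjusted p = 0.944; 3 of 18 types, 16.7%, called), 0.44 ± 2.61 for Obese+enalapril minus Obese and -0.05 ± 2.61 for Obese+enalapril minus Lean (limma adjusted p = 0.955 and 0.997). For the last 2 limma called 0 of 18 types (0%), with 2 and 1 at an unadjusted p under 0.05.

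The GEC share was also set against 3 properties of the libraries over the 11 animals. Against the median UMIs of all cells, Pearson's r was 0.239 (permutation p = 0.477) and Spearman's rho 0.1 (permutation p = 0.775). Against the number of cells, r was -0.353 (permutation p = 0.288) and rho -0.282 (permutation p = 0.401). Against the median mitochondrial share of the other non-immune cells, r was 0.173 (permutation p = 0.609) and rho 0.145 (permutation p = 0.673). After adjustment over the 3 relations the permutation p was 0.609 for each r and 0.775 for each rho. Without the 2 animals farthest from the median of each property, r was -0.121, 0.125 and -0.377, so that none of the 3 relations held its sign. Without Lean 2 the relation to the number of cells was closer, at r = -0.698 (permutation p = 0.0256, adjusted p = 0.0767). This relation is pooled over the groups, and no group has the 6 animals needed for a value of its own.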

How the data were processed

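The analysis started from 1 table of 114615 cells that the authors deposited. Per the file headers, UMIs and genes of each cell stand in it as counts from the authors. The headers do not say whether these counts are raw. The mitochondrial share is a percent deposited by the authors, which reached 50.0, and no cell had over 2971 genes. The S and G2M values and the map coordinates were deposited as a score for each cell. Cell Ranger 7.0.1, Seurat 4.3.0 and the build rn6 are named, with no roles, in the submitters' processing notes. Not given in the sources used here were the filtering, clustering and naming of cells and the handling of doublets and free RNA. Sample codes tied cells to animals, and 0 cells disagreed with the labelled group. No label says which libraries were made together; sample codes share stems within groups, so results were also computed with animals of 1 stem averaged.

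The animal was the replicate. Cell numbers per type were fitted in edgeR 4.0.16 (quasi-likelihood, all 11 animals, types averaging 10 or more cells). Medians and phase shares from at least 20 cells were fitted in limma 3.58.1. Ratios and gene numbers at like depth were tested by exact permutation, where the two-sided p doubles the smaller tail, and differences within animals by exact sign flips. Adjustment followed Benjamini-Hochberg at 0.05. DESeq2 1.42.0, limma on log odds, other cell filters, leaving out each animal and the replicate number as a block were alternatives. The fits were tested on simulated data. The members, the types compared and the tests were chosen with earlier results of these data known. The types named were GEC, Podo/Stroma, PCT, Endo and those beside GEC in an order.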

Additional observations from a re-analysis of the deposited data

Results flagged for a closer look

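The percent of GEC called S in Lean 2 was 6.35%, against 32.7%, 32.5% and 30.9% in the other Lean animals. It was singled out because its gap to the nearest other Lean value took up 0.932 of the group's whole range. Over 20 groups of 4 values examined, 1 was singled out in this way, where chance gives about 1 in 20. Lean 2 also had the shallowest GEC of all animals, with a median of 275 UMIs, and 63 GEC in all. The part of depth in this value was not tested, since no Lean 2 GEC had 1000 UMIs.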

How the results depend on the processing

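Over all alternatives 519 results kept their direction and their side of the threshold, 44 changed sign and 3 lost their call, and every change of sign was in a difference between groups, or a relation across animals, that had passed no test. The Obese minus Lean change in the non-immune GEC share turned to 0.33 among cells under 10% mitochondrial UMIs and to 0.10 without proximal tubule names. The Obese minus Lean log2 ratio of GEC to PCT turned to 0.88 at 500 UMIs or more and to 1.03 under 10% mitochondrial UMIs. At 500 UMIs or more, the Obese+enalapril minus Lean differences were 0.013 for that ratio, -0.15 for UMIs, -0.24 for genes and -0.13 points for mitochondrial share. With a score above 0.1 called, Obese+enalapril minus Lean was -0.63 points for S, Obese minus Lean was 0.16 for G2M and Obese+enalapril minus Obese was -0.60 for G2M. Within 1000 to 2000 UMIs, Obese minus Lean was -2.46 and Obese+enalapril minus Lean -4.40 points for S, and Obese+enalapril minus Obese was -0.13 for G2M. The correlations without the 2 farthest animals were -0.121, 0.125 and -0.377. The cause of these changes was not tested.

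Leaving out 1 animal at a time, the Obese minus Lean range was -0.59 to 0.12 for the non-immune share, -0.66 to 0.48 for the PCT ratio, -0.026 to 0.12 for genes at like depth, -1.68 to 7.11 points for S and -2.47 to 0.60 points for G2M. The Obese+enalapril minus Lean range was -0.15 to 0.79 for UMIs, -0.25 to 0.57 for genes, -0.97 to 1.81 points for mitochondrial share, -6.13 to 2.96 points for S and -0.97 to 0.51 points for G2M. The Obese+enalapril minus Obese range for G2M was -0.65 to 2.42 points. Gene numbers of GEC minus other non-immune cells ran between -0.24 and -0.17 log2 (exact permutation, adjusted p between 0.00977 and 0.0508), and averaging animals of 1 code stem gave -0.23 (adjusted p = 0.125). Mitochondrial share ran between -3.75 and -0.97 points in Obese+enalapril minus Obese. Without Lean 2, r was -0.106 for median UMIs and -0.0907 for mitochondrial share. The share of all cells ran between -0.96 and -0.30 in Obese over Lean (edgeR adjusted p between 0.0698 and 0.592), and between -1.22 and -0.56 in Obese+enalapril over Lean (0.0534 to 0.482).

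No label says that animals of the same replicate number are paired. Deviations of 10 same-numbered pairs correlated between -0.472 and 0.513, with 5 above 0.1, and 9 of 20 best matches were with the own number. The number of such matches to expect by chance was not computed, so these values do not settle whether the numbers pair animals. With the number as a replicate block, the GEC share changed by -0.63 ± 0.63 in Obese over Lean (edgeR adjusted p = 0.363), by -0.34 ± 0.64 in Obese+enalapril over Obese (0.809) and by -0.97 ± 0.70 in Obese+enalapril over Lean (0.314). The block called 12, 3 and 5 of 20 types, against 12, 0 and 3 without it. DESeq2 called 7 types between Obese+enalapril and Lean, against 3 for edgeR. Depth limits Lean 2 most, where 1 of 63 GEC reached 500 UMIs.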
